A study of Mus musculus with 4 samples.

Results

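Small nucleolar RNAs (snoRNAs) are short noncoding RNAs that guide the chemical modification of ribosomal RNA, and in mammals most of them are cut out of the introns of longer host transcripts. Some hosts make no known protein, so that the intron carries the product while the spliced exons are left over. The spliced RNA of such noncoding hosts is known to begin with the pyrimidine-rich start that ribosomal protein mRNAs also have, to be loaded onto ribosomes, and to be removed by nonsense-mediated decay, the pathway that degrades RNAs whose reading frame stops early. Gas5, the best known host, was named for the build-up of its RNA in cells that stop growing.

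The 9 noncoding hosts described here are Gas5, Snhg1, Snhg3, Snhg5, Snhg6, Snhg8, Snhg12, Snhg15 and 2410006H16Rik, out of 24182 genes listed in both tables. They were picked by name from a list drawn up with the results of these same comparisons in view. The list was thus chosen on the deposited fasting changes, and those changes are given as a description of the genes, not as evidence about them. All 9 genes were listed in both tables and carried an adjusted p-value there.

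RNA came from epithelial cells of small-intestinal crypts, the pits of the gut lining that hold its stem cells. All mice were C57BL/6J males, 9 weeks old. The 4 groups were fed mice and mice fasted for 24 hours, each either untreated, labelled (-Tetra), or given the antibiotic tetracycline for 21 days, labelled (+Tetra). The study's design text states that tetracycline was given to deplete what it abbreviates as AKK. The labels list 1 sample per group, whereas the counts behind the authors' deposited tables showed 2 libraries per group. Whether those came from separate mice is not given in the sources used here.

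Every change is written as fasted over fed, the order of the words in the names of the deposited tables, because no column states the direction. A normalized count is a read count divided by the library's size factor, which corrects for sequencing depth. Size factors ran from 0.9299 to 1.09 without and from 0.7268 to 1.27 with tetracycline. Within a group, the library read more deeply is called library 1, and libraries of the same number have nothing else in common. The fasted libraries of a table stood apart from each other in these genes, so values without single libraries are given below.

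2410006H16Rik, the host with the widest distance between fed and fasted libraries, lies at chr11:62602877-62604807 on the + strand (GENCODE M21, GRCm38) and holds 3 box C/D snoRNAs. Box C/D snoRNAs guide ribose methylation and are recognised by a C box near the start and a D box near the end. The 3 sequences below are shown because they are the intron products of this host, with the first TGATGA (C box) and the last CTGA (D box) in capitals. Each is 72 bases long and ends 2 bases after the D box letters.
Snord49b: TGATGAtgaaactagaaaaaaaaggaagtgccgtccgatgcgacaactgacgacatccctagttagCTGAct
Snord49a: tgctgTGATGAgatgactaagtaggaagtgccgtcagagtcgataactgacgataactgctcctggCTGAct
Snord65: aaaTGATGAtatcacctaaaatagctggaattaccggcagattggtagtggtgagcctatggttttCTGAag

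The start sites of the hosts are shown because RNAs of this class are known for a pyrimidine-rich start, as ribosomal protein mRNAs are. Each window runs from 30 bases before to 30 bases after the start of a RefSeq transcript (GRCm38.p6), on the strand of the gene. The first base of the transcript is therefore the 31st letter. Capitals mark CTTTC or CTTTT, a short pyrimidine tract, and TATAA, the core of a TATA box. Only the gene's own strand was searched. The RefSeq table held 8 of the 9 hosts, all but Snhg6, and of the 2 starts it lists for Gas5 the one with a tract is printed.
Gas5: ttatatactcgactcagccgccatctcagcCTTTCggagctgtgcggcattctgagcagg
2410006H16Rik: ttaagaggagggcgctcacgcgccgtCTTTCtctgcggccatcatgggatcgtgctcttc
Snhg12: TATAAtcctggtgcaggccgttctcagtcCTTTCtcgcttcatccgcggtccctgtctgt
Snhg5: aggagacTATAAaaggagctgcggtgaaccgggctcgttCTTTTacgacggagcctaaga
Snhg8: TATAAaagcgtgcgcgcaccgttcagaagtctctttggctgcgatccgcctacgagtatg
Snhg3: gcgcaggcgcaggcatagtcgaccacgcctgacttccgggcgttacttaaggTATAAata
Snhg1: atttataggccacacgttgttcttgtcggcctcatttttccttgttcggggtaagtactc
Snhg15: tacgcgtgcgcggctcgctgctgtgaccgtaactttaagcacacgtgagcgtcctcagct

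CTTTC stood in the window of 3 of the 8 hosts and CTTTT in that of 1, against 7.93% and 6.51% of the windows of all 32851 starts in the RefSeq table. A host was counted if any of its starts matched, 9 starts in all, whereas the percentages are of single starts. TATAA stood in 4 of the 8 hosts and in 4.21% of all windows. The pyrimidine tract began at letter 31, the listed start, in Gas5, at letter 30 in Snhg12 and at letter 27 in 2410006H16Rik, but at letter 40, after the start, in Snhg5. TATAA likewise lay after the listed start in Snhg3. The first base of the listed transcript was not a pyrimidine (c or t) in Snhg3, Snhg5 and Snhg15. Other pyrimidine runs, such as the unmarked one at the start of Snhg8, were not searched for. The letters were chosen after the sequences had been seen, and a match is a description only.

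The hosts differ in the snoRNAs they carry. By GENCODE M21, Gas5 (chr1:161034422-161038539, + strand) holds 9 genes annotated as snoRNAs, 1 of which bears a microRNA name, Mir5117. Snhg1 (chr19:8723475-8726443, + strand) holds 8, Snhg12 (chr4:132308623-132311024, + strand) 4, and Snhg3 (chr4:132348014-132353686, - strand) and Snhg5 (chr9:88521050-88522929, - strand) 2 each. Snhg6 (chr1:9941959-9944118, - strand), Snhg8 (chr3:123507552-123508404, - strand) and Snhg15 (chr11:6525591-6528760, - strand) hold 1 each. Snhg3, Snhg8 and Snhg15 carry box H/ACA snoRNAs, which guide pseudouridylation, whereas Gas5, Snhg1, Snhg5, Snhg6 and 2410006H16Rik carry box C/D snoRNAs. Snhg12 carries both kinds.

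Without tetracycline, all 9 hosts had a positive fasting change, with a median of 0.61 on the log2 scale against 0.01 over the 18100 genes with an adjusted p. In bulk RNA, more cells of a type and more RNA per cell cannot be told apart. Only 2410006H16Rik rose past the threshold of the authors' deposited table, an adjusted p under 0.05. That is 1 of the 9 hosts, beside 1.06% of all tested genes called higher in that table. At an unadjusted p under 0.05 there were 3 of 9, which added Gas5 and Snhg12, beside 4.59% of all tested genes with a positive change.

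With tetracycline, all 9 hosts again had a positive change, with a median of 0.85 against -0.02 over 17993 genes. The called gene was once more 2410006H16Rik alone, beside 0.333% of all tested genes called higher. At an unadjusted p under 0.05 there were 5 of 9, namely Gas5, Snhg3, Snhg6, Snhg8 and 2410006H16Rik, beside 2.27% of all tested genes with a positive change. The median standard error of the hosts' deposited changes was 0.33 without and 0.44 with tetracycline.

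Without tetracycline, fed mice gave 1167 and 1595 normalized counts of 2410006H16Rik per library and fasted mice 2436 and 3841. With tetracycline, fed mice gave 1150 and 1353 and fasted mice 4959 and 3089. Fed and fasted libraries did not overlap in either table, and the lowest fasted library stood 1.53 and 2.28 times above the highest fed one. The authors' deposited tables gave changes of 1.18 (SE 0.32, adjusted p 0.0143) and 1.69 (SE 0.43, adjusted p 0.0191, DESeq2 with Benjamini-Hochberg adjustment), or 2.27-fold and 3.22-fold.

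Gas5, the growth-arrest host and the most abundant of the 9, gave 3826 and 3318 normalized counts per library in untreated fed mice against 4941 and 7841 in untreated fasted mice. With tetracycline, fed mice gave 3328 and 3726 and fasted mice 9049 and 5051. The groups did not overlap in either table, but 1 fasted library exceeded the other by 1.59 and 1.79 times. The authors' deposited tables gave changes of 0.84 (SE 0.30, adjusted p 0.14) and 1.0 (SE 0.45, adjusted p 0.785), so that Gas5 was not called in either.

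Snhg1, whose introns hold box C/D snoRNAs, gave 1037 and 884.1 normalized counts per library in untreated fed mice against 1017 and 1709 in untreated fasted mice. One fasted library thus lay within the fed range. Treated fed mice gave 914.3 and 1076 and fasted mice 1851 and 1354, with no overlap. The deposited changes were 0.50 (SE 0.33) and 0.69 (SE 0.40) in the authors' deposited tables, with adjusted p of 0.646 and 1.

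Snhg5, the host of the Snord50 pair, gave 456.5 and 357.7 normalized counts per library in untreated fed mice against 370.6 and 657.1 in untreated fasted mice. The lower fasted library lay between the fed ones. Treated fed mice gave 355.9 and 387.2 and fasted mice 798.1 and 506.3, with no overlap. The authors' deposited tables gave it the smallest change of the 9 without tetracycline, 0.33 (SE 0.36), and 0.81 (SE 0.44) with it.

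Snhg6, the host of Snord87, gave 445.6 and 461.1 normalized counts per library in untreated fed mice against 460.5 and 706.6 in untreated fasted mice. The lower fasted library lay within the fed range. In treated mice, fed libraries held 367 and 439 and fasted ones 806.4 and 649.4, with no overlap. The deposited changes were 0.36 (SE 0.33) and 0.85 (SE 0.40) in the authors' deposited tables.

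Among the hosts of box H/ACA snoRNAs, Snhg3 gave 310.6 and 319.5 normalized counts per library in untreated fed mice against 390.8 and 591.5 in untreated fasted mice. With tetracycline, fed mice gave 215 and 306.3 and fasted mice 741.4 and 437.5. Its groups stood apart in both tables, and its changes were 0.64 (SE 0.33) and 1.18 (SE 0.49) in the authors' deposited tables. After 2410006H16Rik it had the largest change of the 9 with tetracycline, with an adjusted p of 0.644.

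Snhg8, the host of Snora24, gave 705.6 and 747.5 normalized counts per library in untreated fed mice against 763.2 and 1151 in untreated fasted mice. The groups were separated by a factor of only 1.02. With tetracycline, fed mice gave 591.4 and 646.1 and fasted mice 1508 and 905.3, separated by a factor of 1.40. The deposited changes were 0.40 (SE 0.31) and 0.96 (SE 0.44) in the authors' deposited tables.

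Snhg15, the host of Snora9 and the gene with the fewest counts of the 9, gave 237.2 and 192.9 normalized counts per library in untreated fed mice against 265.1 and 393.6 in untreated fasted mice. After tetracycline the fed libraries held 184.3 and 231.9 and the fasted ones 427 and 284.8. No overlap was seen in either table. The deposited changes were 0.61 (SE 0.36) and 0.78 (SE 0.47) in the authors' deposited tables.

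Snhg12, which holds Snora16a, Snora44, Snora61 and Snord99, gave 443.6 and 322.5 normalized counts per library in untreated fed mice against 529.3 and 774.3 in untreated fasted mice. After tetracycline the fed libraries held 444.9 and 455.2 and the fasted ones 893.6 and 598.5. Its groups stood apart in both tables. It was the only host with a smaller change with tetracycline, 0.73 (SE 0.42), than without, 0.77 (SE 0.34), in the authors' deposited tables.

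**Figure D1:**
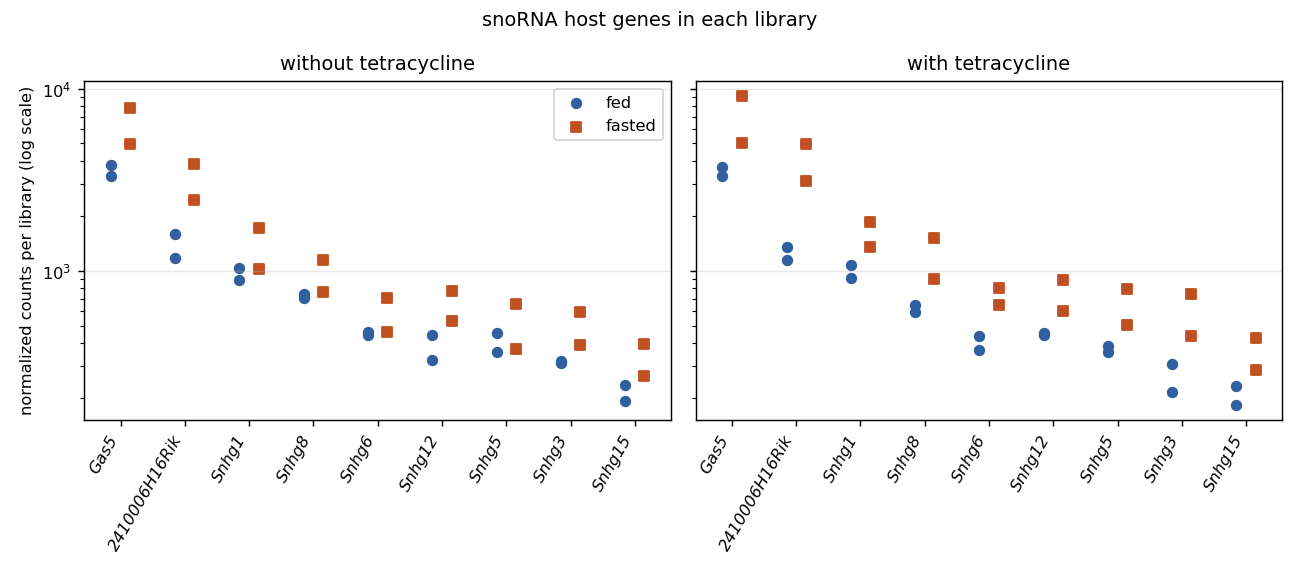
Normalized counts of the 9 snoRNA host genes in each library (y axis, log scale), without tetracycline on the left and with it on the right; circles are fed and squares fasted libraries, and each point is 1 library. With tetracycline both fasted libraries lie above both fed ones for all 9 genes, and without it for 6 of the 9.

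Both fasted libraries exceeded both fed libraries for 6 of the 9 hosts without tetracycline, all but Snhg1, Snhg5 and Snhg6. Among the 8792 genes with a mean of 250 to 6000 normalized counts whose library counts were recovered, 18.2% did so. With tetracycline all 9 hosts did so, against 14.7% of 8936 genes. In both tables at once it held for 6 of the 9, against 5.73% of 8624 genes. Since the hosts were chosen with the fasting changes known, these counts are not support for a change.

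**Figure D2:**
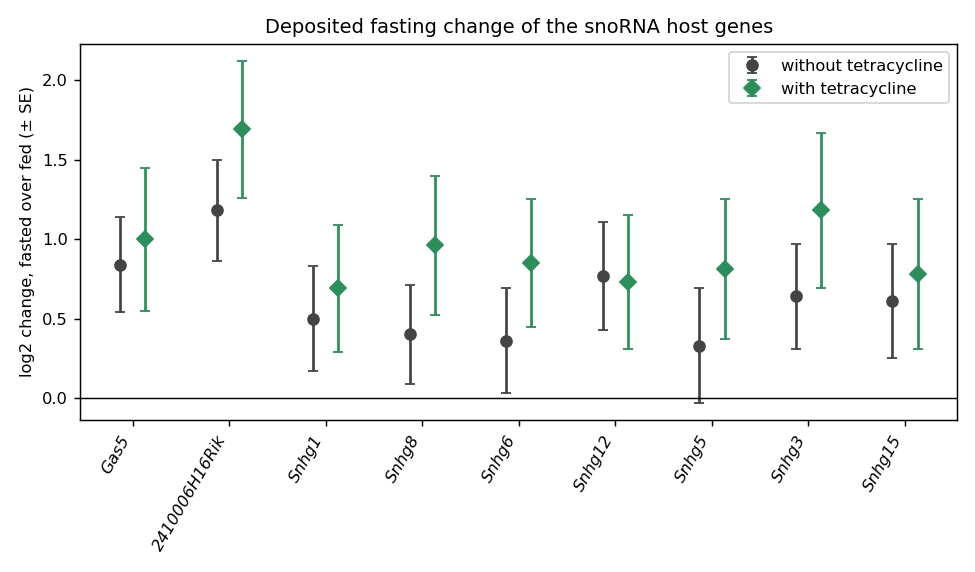
Deposited log2 change, fasted over fed, of each host (y axis), with bars of 1 standard error; circles are the table without tetracycline and diamonds the table with it. All 18 points lie above 0, and 2410006H16Rik is highest in each table.

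The size of these values differed between fasted libraries. Relative to the fed libraries, the mean over the 9 hosts was 1.21-fold and 1.89-fold in the fasted libraries without tetracycline, and 2.37-fold and 1.54-fold in those with it. The fed libraries of a table differed little, at 1.04 and 0.97 without and 0.93 and 1.08 with tetracycline. When fasted library 2 without tetracycline was left out, the median change was 0.30 in place of 0.61, and that of Snhg5 was -0.14. When fasted library 1 with tetracycline was left out, the median was 0.52 in place of 0.85, with all 9 hosts above 0.

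Within each table the hosts followed each other from library to library. The Pearson r of each host with the mean of the other 8, over 8 libraries centred within their table, ran from 0.94 (Snhg5, Snhg12 and 2410006H16Rik) to 0.98 (Gas5, Snhg3 and Snhg15). The same measure against the 9 hosts had a median of -0.15 over 8624 genes, of which 4.7% reached 0.8. These points share libraries and their size factors, and r spans fed and fasted libraries together. It therefore holds the fasting difference on which the hosts were chosen, so a high r among them was largely fixed by that choice and is given as a description only. Gas5 made up 39.2% to 44.4% of the summed normalized counts of the 9 hosts in every library, fed or fasted.

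2410006H16Rik stood further from its fed level than the others did. Its ratio to the mean of the other 8 hosts was 1.55 and 1.56 in the fasted libraries without tetracycline, where 1 is the mean of the fed libraries, which stood at 0.81 and 1.24. With tetracycline the ratio was 1.79 and 1.71 in the fasted and 1.0 in both fed libraries. It was above every fed value in all 4 fasted libraries, and differed little between the fasted libraries of a table even where the hosts' levels did. When untreated fed library 1 was left out, however, the largest change was that of Snhg12, at 1.02. When any other single library was left out, it was that of 2410006H16Rik.

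Levels were compared between hosts per kilobase of the median annotated transcript. In fed mice without tetracycline, Gas5 came first at 5679 normalized counts per kilobase, then 2410006H16Rik at 2990, Snhg1 at 1595 and Snhg8 at 1376. Snhg6 stood at 811, Snhg3 at 721, Snhg5 at 489, Snhg12 at 419 and Snhg15 at 360. In fasted mice with tetracycline, 2410006H16Rik reached 8710 and Gas5 11208 normalized counts per kilobase. The order depends on the length used: over all annotated exon bases, retained introns included, Gas5 stood at 950 and 2410006H16Rik came first at 2990. Among neighbours in the first order, the fed libraries of Snhg5 overlapped those of Snhg12, and those of Snhg12 overlapped those of Snhg15, while the other neighbours did not overlap.

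Tetracycline-treated and untreated mice were then compared in their response to the fast. The change was larger with tetracycline for 8 of the 9, with a median difference of 0.48 on the log2 scale against 0.00 over 17571 tested genes. Both values rest on single libraries. Without untreated fasted library 1 the median was 0.12 and without treated fasted library 1 it was 0.11, each with 5 of 9 larger. Without untreated fasted library 2 it was 0.83, without untreated fed library 1 it was 0.29, and without untreated fed library 2 or treated fed library 1 it was 0.30. These alternatives were chosen after seeing the data. A Wald test of the difference called 0 of the 9 at a Benjamini-Hochberg adjusted p under 0.05, beside 0.0228% of all tested genes. At an unadjusted p under 0.05 there were 0 of the 9, beside 1.05% of all tested genes. The largest difference was that of Snhg8, 0.57 (SE 0.54, 95% interval -0.49 to 1.63). That of 2410006H16Rik was 0.50 (SE 0.53, -0.55 to 1.55) and that of Gas5 0.16 (SE 0.54, -0.90 to 1.22). For each of the 9 hosts the interval held 0 and reached above 1 on the log2 scale, so a 2-fold larger change with tetracycline is not excluded by these data.

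Levels with against without tetracycline cross 2 separately scaled tables and were not tested. In fed mice the hosts had a median log2 ratio of -0.19 after centring on all genes, and 1 of 9, Snhg12, was higher with tetracycline. In fasted mice the median was 0.20, with all 9 higher. For each of the 9 hosts, the fasted libraries of the tables overlapped. That median was -0.08 without fasted library 1 and 0.59 without fasted library 2 of the untreated mice, and -0.14 without fasted library 1 and 0.44 without fasted library 2 of the treated ones, so its direction rests on single libraries. In fed mice it was -0.01 without library 1 and -0.20 without library 2 of the untreated mice, and -0.09 and -0.28 without those of the treated ones. In fed mice, Snhg3, Snhg6 and Snhg8 were lower with tetracycline without overlap of the libraries. How many of all genes did so was not computed, so this is a description only. Before centring, the highest treated and lowest untreated fed libraries were 306.3 and 310.6 for Snhg3, and 439 and 445.6 for Snhg6. For Snhg8 they were 646.1 and 705.6. For Snhg12 the treated fed libraries began at 444.9 and the untreated ones ended at 443.6 before centring, a gap smaller than the centring shift of 0.06.

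Other noncoding snoRNA hosts had changes of a like size. Of 14 listed, 12 were matched in both tables, and all 12 had a positive change in each. Their medians were 0.51 without and 0.82 with tetracycline, close to the 0.61 and 0.85 of the hosts above. By DESeq2 in the authors' deposited tables, the number that rose was 2 of 12 without tetracycline, beside 1.06% of all tested genes. With tetracycline 0 of 12 were called, beside 0.333% of all tested genes, and 5 had an unadjusted p under 0.05 with a positive change, beside 2.27%. Both fasted libraries exceeded both fed ones for 9 of the 12 in each table, beside 18.2% and 14.7% of the genes with a mean of 250 to 6000, a range that Snhg9, Snhg10, Snhg11 and Rian lie below.

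Zfas1, the most abundant of them, gave 1225 and 1546 normalized counts per library in untreated fed mice against 2575 and 3365 in untreated fasted mice. With tetracycline these were 1264 and 1467 against 3826 and 2966. Its deposited changes were 1.10 (SE 0.29, adjusted p 0.00867) and 1.31 (SE 0.38, adjusted p 0.0818) in the authors' deposited tables. Epb41l4aos gave 411.8 and 438 normalized counts per library in untreated fed mice against 725.6 and 1011 in untreated fasted mice. With tetracycline these were 393 and 499.4 against 1221 and 810.4. Its deposited changes were 1.03 (SE 0.31, adjusted p 0.0367) and 1.19 (SE 0.44, adjusted p 0.406) in the authors' deposited tables. Fed and fasted libraries of both genes stood apart in each table, and both rose without tetracycline.

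The genes with the library profile most like that of the 9 hosts, among 65 related or neighbouring genes compared, were also noncoding hosts. They were 1110038B12Rik (r 0.97), Epb41l4aos (0.97), Snhg4 (0.96), Snhg17 (0.95) and Snhg16 (0.94), each over 8 libraries. Among all 8624 genes, 0.128% had an r at least as high as 1110038B12Rik and 0.649% at least as high as Snhg16. Zfas1 followed at 0.93, then Rpl12 and Rpl5 at 0.92 and Taf1d and Eif3e at 0.91. The noncoding hosts Snhg18 (0.87) and Snhg20 (0.73) stood below these. Genes without recovered library counts, most ribosomal protein genes among them, could not be compared. This r also holds the fasting difference on which the 9 hosts were chosen, and is a description only.

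**Figure D3:**
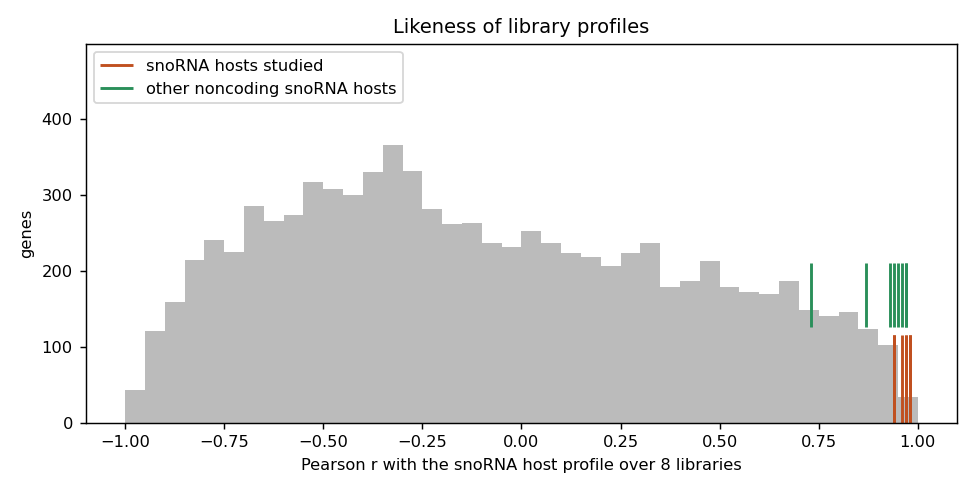
Histogram of the Pearson r between each gene and the mean profile of the 9 hosts over 8 libraries, for 8624 genes with a mean of 250 to 6000 (y axis, number of genes); long marks at the base are the 9 hosts, each against the other 8, and raised marks are other noncoding hosts with a mean of at least 50. The 9 hosts lie between 0.94 and 0.98, where the median of all genes is -0.15.

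Protein-coding snoRNA hosts, which carry snoRNAs in introns of translated genes, had smaller changes. Their median over 19 genes was 0.19 without and 0.20 with tetracycline, with 15 and 18 genes above 0. By the authors' deposited tables, DESeq2 called 0 of 19 in each, beside 1.06% and 0.333% of all tested genes called higher. Of the 19, 1 and 2 had an unadjusted p under 0.05 with a positive change, beside 4.59% and 2.27% of all tested genes. Eef2, the translation elongation factor and the most abundant of them, had changes of 0.64 (SE 0.25) and 0.78 (SE 0.35) in the authors' deposited tables.

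The mRNAs of the proteins that bind snoRNAs had smaller changes, of either sign. The 8 core proteins of snoRNA particles had a median change of -0.19 without tetracycline, with 7 of 8 below 0, and of 0.11 with it, with 8 of 8 above 0. There were 0 called and 0 at an unadjusted p under 0.05 in either of the authors' deposited tables. Of all tested genes, 1.06% and 0.333% were called higher, and 4.59% and 2.27% had an unadjusted p under 0.05 with a positive change. Those called lower were 220 of 18100 and 48 of 17993. At that unadjusted p, 1124 and 551 had a negative change. A list of 8 genes can hold 0 at such shares. Fbl, the methyltransferase of box C/D particles, had changes of -0.13 (SE 0.30) and 0.10 (SE 0.50) in the authors' deposited tables. The 9 assembly factors had medians of -0.11 and -0.02, with 6 and 5 genes below 0. Again 0 were called and 0 had an unadjusted p under 0.05, beside the same shares of all tested genes. Nolc1, the most abundant of these, had changes of -0.09 and -0.05 in the authors' deposited tables.

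The mRNAs of the nonsense-mediated decay machinery had medians of -0.08 and -0.01 over 10 genes, of which 6 and 5 were below 0. By the authors' deposited tables, DESeq2 called 0, beside 1.06% and 0.333% of all tested genes called higher. Of the 10, 1 and 0 had an unadjusted p under 0.05 and a positive change, beside 4.59% and 2.27% of all tested genes. Upf1, the central helicase of that pathway and the most abundant of the list without tetracycline, had changes of -0.12 (SE 0.25) and -0.23 (SE 0.36) in the authors' deposited tables. These values are of mRNA and do not measure the activity of the pathway.

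Genes whose mRNAs are known for the pyrimidine-rich start had positive medians. The 79 cytosolic ribosomal protein genes had a median change of 0.15 without and 0.61 with tetracycline, with 71 and 79 genes above 0. By the authors' deposited tables, DESeq2 called 0 in either, beside 1.06% and 0.333% of all tested genes called higher. Of the 79, 0 and 3 had an unadjusted p under 0.05 and a positive change, again beside 4.59% and 2.27% of all tested genes. Rplp0, the most abundant, had changes of 0.26 (SE 0.29) and 0.82 (SE 0.39) in the authors' deposited tables. The 15 other mRNAs of this class had medians of 0.25 and 0.45 with 0 called, beside the same shares of all tested genes called higher. Of the 15, 1 and 2 had an unadjusted p under 0.05 with a positive change, beside the same 4.59% and 2.27%. Eef1a1 among them had changes of 0.32 and 0.65 in the authors' deposited tables. Reads of ribosomal protein genes can be shared with their many processed pseudogenes.

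Genes of ribosome biogenesis and RNA polymerase I had medians of -0.05 and 0.19 over 16 genes, of which 6 and 13 were above 0. By the authors' deposited tables, DESeq2 called 0 in either, beside 1.06% and 0.333% of all tested genes called higher. At an unadjusted p under 0.05 there were also 0, beside 4.59% and 2.27% of all tested genes with a positive change. A list of 16 genes can hold 0 at such shares. Ncl, a nucleolar protein whose own gene hosts snoRNAs, had changes of 0.24 and 0.26 in the authors' deposited tables. Without tetracycline the medians of the 9 hosts and of the other noncoding hosts lay above those of these lists, but single genes overlapped: the hosts began at 0.33 and the other noncoding hosts at 0.10, while Rps27 stood at 0.71, Eef2 at 0.64 and Smg1 at 0.56, genes chosen for this after their values were seen. With tetracycline the ribosomal protein genes came closer, with a median of 0.61 against 0.85 for the 9 hosts. They reached 0.82, where the hosts began at 0.69. No test between lists was run.

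**Figure D4:**
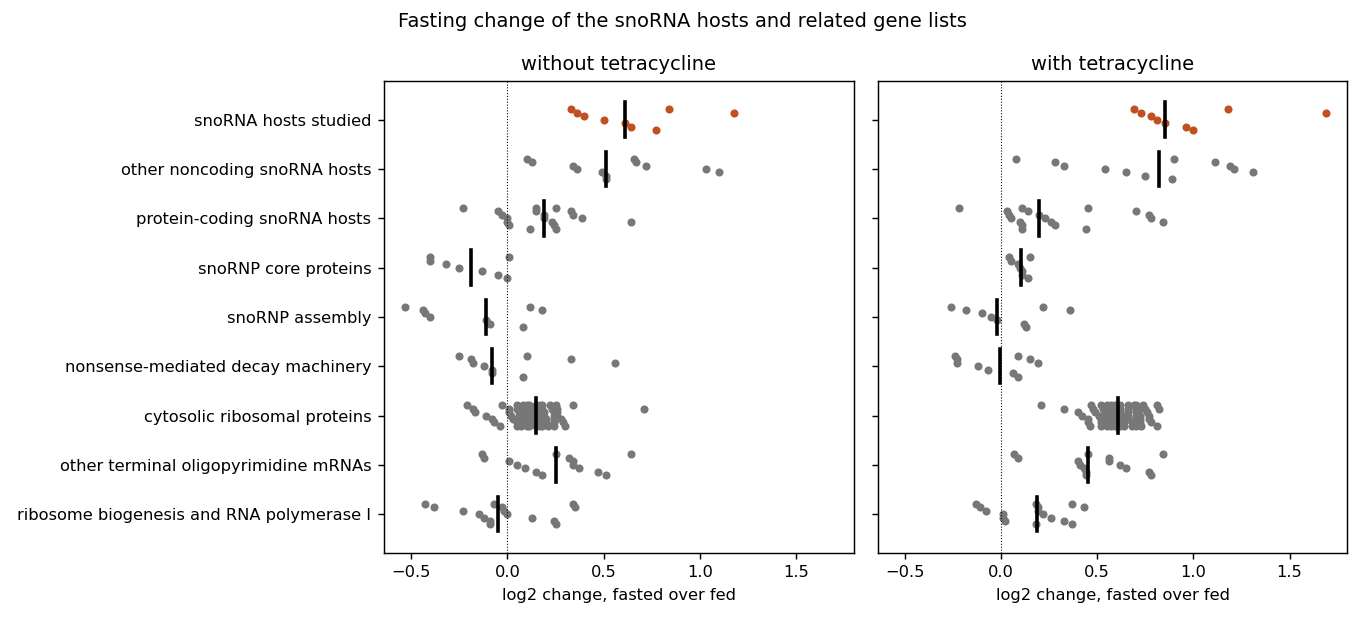
Log2 change, fasted over fed (x axis), of each gene in the snoRNA hosts and 8 related lists (rows), without tetracycline on the left and with it on the right; each point is a gene and the black bar the median of the row. The hosts' medians are 0.61 and 0.85, those of the ribosomal protein genes 0.15 and 0.61, and those of the snoRNA particle core proteins -0.19 and 0.11.

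The kit used for the libraries marks no strand, so reads from overlapping genes on opposite strands cannot be told apart. Zbtb37, which starts 427 bases from Gas5 on the opposite strand and overlaps it, had changes of 0.57 (SE 0.33) and -0.02 (SE 0.41) in the authors' deposited tables. Slc3a2, which starts 106 bases from Snhg1 on the opposite strand, had changes of 0.24 (SE 0.30) and 0.93 (SE 0.58) in the authors' deposited tables. Rcc1, which overlaps Snhg3 on the same strand with a start 81 bases away, gave 3467 and 3081 normalized counts per library in untreated fed mice against 2098 and 2377 in untreated fasted mice, so its fasted libraries were the lower ones. Its change there was -0.55 (SE 0.26, adjusted p 0.378), and -0.19 (SE 0.40) with tetracycline, in the authors' deposited tables. Mcmdc2, which overlaps Snhg6 on the opposite strand, had 10.05 to 110.3 normalized counts per library and changes of 1.09 (SE 0.74) and -0.02 (SE 0.74) in the authors' deposited tables.

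The snoRNAs themselves were hardly read, and their levels cannot be judged from these libraries. Of the snoRNA genes inside the 9 hosts, Snora73a, Snora73b and Snord87 were listed in both tables. Snora73b, inside Snhg3, gave 10 and 22 counts per library in untreated fed mice against 20 and 6 in untreated fasted mice, and 10 and 7 against 13 and 2 with tetracycline. Its changes of -0.36 (SE 1.04) and -0.17 (SE 1.45) in the authors' deposited tables have far larger errors than those of its host.

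Markers of the labelled tissue were present: the authors' mean without tetracycline was 83703 normalized counts for Epcam, an epithelial gene, and 63881 for Olfm4, a crypt base gene. Alpi, a gene of differentiated enterocytes in the same list, stood at 74433. Of 11 crypt epithelium markers, 7 had a change above 0 in each of the authors' deposited tables. Defa24, a Paneth cell defensin, rose without tetracycline by 1.15 (SE 0.28, adjusted p 0.00327) and had a change of 1.27 (SE 0.72, adjusted p 1) with it, in the authors' deposited tables. Lyz1, another Paneth cell gene, had changes of 0.61 and 0.98, Lgr5, a stem cell gene, of 1.06 and 0.78, and Olfm4 of -0.46 and -0.51, with none of these called in the authors' deposited tables. Library counts were recovered for 2 of the 11, Lgr5 and the enteroendocrine gene Chga. Lgr5 gave 664.9 and 374.7 normalized counts per library in untreated fed mice against 1003 and 1168 in untreated fasted mice, with no overlap, and 391.4 and 721.6 against 1515 and 399 with tetracycline, where the groups overlapped. Chga gave 8671 and 9755 against 8132 and 10902 without tetracycline, with overlap, and 6383 and 5906 against 10260 and 10759 with it, with none.

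Summed over 7 lymphocyte markers, all recovered, untreated fed mice gave 13657 and 17596 normalized counts per library and untreated fasted mice 5828 and 11546. With tetracycline, fed mice gave 56791 and 15010 and fasted mice 18812 and 3215. Lymphocyte sums were thus lower in fasted than in fed libraries without tetracycline, while the hosts were higher. Between the 2 fasted libraries of a table, the one with more host RNA also had more lymphocyte RNA.

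Myeloid (4 of 4 markers) and stromal (6 of 6 markers) sums were lower in both fasted libraries than in both fed libraries of each table. Myeloid sums ran from 485.7 to 1665 in fasted and 1837 to 4826 in fed libraries, and stromal sums from 234.8 to 571 and 581.4 to 1533. Proliferation markers (7 of 7) summed to 54412 and 35368 in untreated fed mice against 27242 and 34967 in untreated fasted mice, and to 36029 and 55336 against 38747 and 24543 with tetracycline. The fasted library with more host RNA had the larger proliferation sum in each table. Of the 3 red blood cell genes 1 was recovered, at 277.9 to 1409 in fasted and 1781 to 5383 in fed libraries. The 5 acinar genes summed to 55.12 to 697.2 normalized counts with no order between groups. The part of any of these cells in the hosts' values was not tested.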

How the data were processed

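RNA sequencing of mouse small-intestinal crypts was analysed from 2 deposited tables of the authors' fasting comparisons, without and with tetracycline. The submitters' processing notes name Salmon, DESeq2 and mm10; versions and the annotation release are not given in the sources used here. Per the file headers, the authors' mean is a signal, the average of counts divided by DESeq2 size factors. The deposited change and its error are log2 values, the deposited statistic is a score, their quotient, and the authors' p-values are adjusted by Benjamini-Hochberg. There are 0 unused per-sample columns.

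A deposited mean is a sum of whole counts times 1 step per library. The steps were read from the lowest means, and each mean was solved for 4 counts, keeping solutions whose refitted change met the deposited one. This gave counts for 99.9% of genes without and 99.8% with tetracycline at a mean of 50 to 6000, and for all 9 hosts. Which library belongs to which labelled sample is not known, so they are shown singly, with no count model. The procedure was tested on simulated data.

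The difference of the changes was tested with a Wald test over 17571 genes. Tetracycline levels used means rebuilt from the deposited mean and change, pseudocount 1, centred on the median of genes with a mean of at least 1 (shift 0.06 in fed and in fasted mice). The design had assumed counts per sample. Genes without a deposited symbol took it by identifier from a table of gene names. Positions are from GENCODE M21, which matched 99.3% of identifiers without their version and 0.0509% with it. Its coordinates are of the build that the notes name.

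The members and lists were chosen with earlier results of these data known. Named besides the 9 hosts are each list's most abundant gene without tetracycline, its called genes, and the 5 most alike in profile. Markers, neighbours, Rps27, Rpl5, Rpl12, Taf1d, Eif3e, Smg1, Snhg9, Snhg10, Snhg11, Snhg18, Snhg20, Rian and the genes of snoRNAs were named outside this rule. Genes called were those with an adjusted p under 0.05. Python 3.11.15, numpy 2.4.6, pandas 2.3.3 and scipy 1.17.1 were used.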

Additional observations from a re-analysis of the deposited data

How the results depend on the processing

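No paired analysis was possible because the deposited tables give no replicate numbers and each labelled group has 1 sample. At an adjusted p under 0.01, 0 of the 9 hosts were called without and 0 with tetracycline, and related lists held 1 call in place of 2. Leaving out each library in turn moved the median fasting change between 0.30 and 0.87 without and between 0.52 and 1.10 with tetracycline, and the tetracycline level between -0.28 and -0.01 in fed and between -0.14 and 0.59 in fasted mice. The median difference of the fasting changes moved between 0.11 and 0.83, an alternative chosen after seeing the data. Pseudocount, centring and the mean in place of the median kept the fasting change between 0.59 and 0.63 without and between 0.85 and 0.97 with tetracycline. With other pseudocounts and centring, the tetracycline level stayed between -0.19 and -0.13 in fed and between 0.19 and 0.26 in fasted mice. The other difference tests added 0 calls. With 2 libraries per side of unknown origin, p-values measure only the spread between these libraries, and count intervals would cover counting error only.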
